A study of Mus musculus with 6 samples.

Results

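The cytochrome P450 family 4 (Cyp4) fatty acid hydroxylases described here are 10 mouse genes, 6 of the Cyp4a subfamily (Cyp4a10, Cyp4a12a, Cyp4a12b, Cyp4a14, Cyp4a31 and Cyp4a32), 3 of the Cyp4f subfamily (Cyp4f13, Cyp4f14 and Cyp4f15) and Cyp4v3. They were taken by gene name from the array's own annotation, and 14 of 39429 probes carry one of these names, 10 of them for Cyp4a genes. The genes were listed with the comparison of the 2 diets already known, so their differences between the diets are given as a description, with no test. Gene expression was measured on 1-colour Agilent arrays, 1 per mouse, in the non-tumour part of the liver of 6 male mice of the inbred strain C57BL6, which were 5 weeks old at the start. The control group of 3 mice ate a standard laboratory diet. The restricted group of 3 mice ate a formula that the sample labels describe as moderately restricted in carbohydrate and that the series text names MCDmp. The sample titles call both diets supplemented, and those titles do not say with what. Every mouse of both groups also received a tail vein injection, by the hydrodynamic method, of a transposon vector carrying HrasG12V (an activated RAS oncogene), shp53 (a hairpin RNA against p53) and GFP4 (a fluorescent marker). On the timing the labels disagree: those of the samples state 1 week on the diets before the injection and 5 weeks of feeding, the series text 2 weeks and 4 weeks. The promoter that drives the vector is not given in the sources used here, and the control group carries the vector too, so no values from an untreated liver are included.

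Enzymes of the Cyp4 family sit in the endoplasmic reticulum and add a hydroxyl group to the end of a fatty acid chain, the omega position. Alcohol and aldehyde dehydrogenases then turn the product into a dicarboxylic acid, which peroxisomes shorten. In rodent liver, Cyp4a10 and Cyp4a14 are classical targets of PPAR-alpha, the nuclear receptor that senses fatty acids, and are induced by fasting and by fibrate drugs. Cyp4a12a is known for its higher level in males and for making a vasoactive hydroxylated arachidonic acid, while Cyp4f enzymes act on leukotrienes, other eicosanoids and the side chain of vitamin E.

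Several Cyp4a genes are near-identical copies, and the probes show how little separates them. Of the 3 Cyp4a10 probes and 3 Cyp4a31 probes, a probe of each covers the same stretch of the transcript, starting at position 1193 in Cyp4a10 and 1158 in Cyp4a31, as the annotation of the array gives it. Both 60-base probes are shown 5′ to 3′ as deposited, with the bases that differ in capitals.

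Cyp4a10: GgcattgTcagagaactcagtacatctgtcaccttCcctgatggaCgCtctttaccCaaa

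Cyp4a31: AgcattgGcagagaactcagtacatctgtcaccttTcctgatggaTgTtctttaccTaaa

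These probes differ at 6 bases (G1A, T8G, C36T, C46T, C48T and C57T, counted from the 5′ end, with the Cyp4a10 base first), are 90.0% identical and share a run of 27 bases. A second pair, near the 3′ end of the transcripts, overlaps over 47 bases with 3 differences (93.6% identical) and a shared run of 34 bases. The last 30 bases of that overlap hold 2 of the differences, again in capitals.

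Cyp4a10: ccctcctttctgcaataaagTtccCagtgt

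Cyp4a31: ccctcctttctgcaataaagGtccAagtgt

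The annotation of the array itself assigns some probes to more than 1 gene. The Cyp4a12a probe lists the RefSeq transcripts of both Cyp4a12a and Cyp4a12b, the Cyp4a10 probe at position 1193 lists those of Cyp4a10 and Cyp4a32, and the Cyp4a31 probe at position 713 lists those of Cyp4a31 and Cyp4a10. Signal within Cyp4a12a and Cyp4a12b, and within Cyp4a10, Cyp4a31 and Cyp4a32, may therefore be shared, and how much each transcript contributes was not tested. The single probes of Cyp4a14, Cyp4f13, Cyp4f14, Cyp4f15 and Cyp4v3 list 1 RefSeq transcript each.

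Values are the log2 of a probe's processed signal minus that array's 75th percentile, so a difference of 1 is a doubling. All 14 probes were well above background on the 6 arrays. The restricted mice lay above the control mice without overlap on all 14, an arrangement found in that direction for 26.1% of the 19616 features (1 probe per gene name) over the array, and in either direction for 44.8%. On limma's test over all features all 10 members were called higher at an adjusted p under 0.05, as were 14.6% of all features. The members were chosen from this contrast, so nothing is read from either count.

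**Figure D1:**
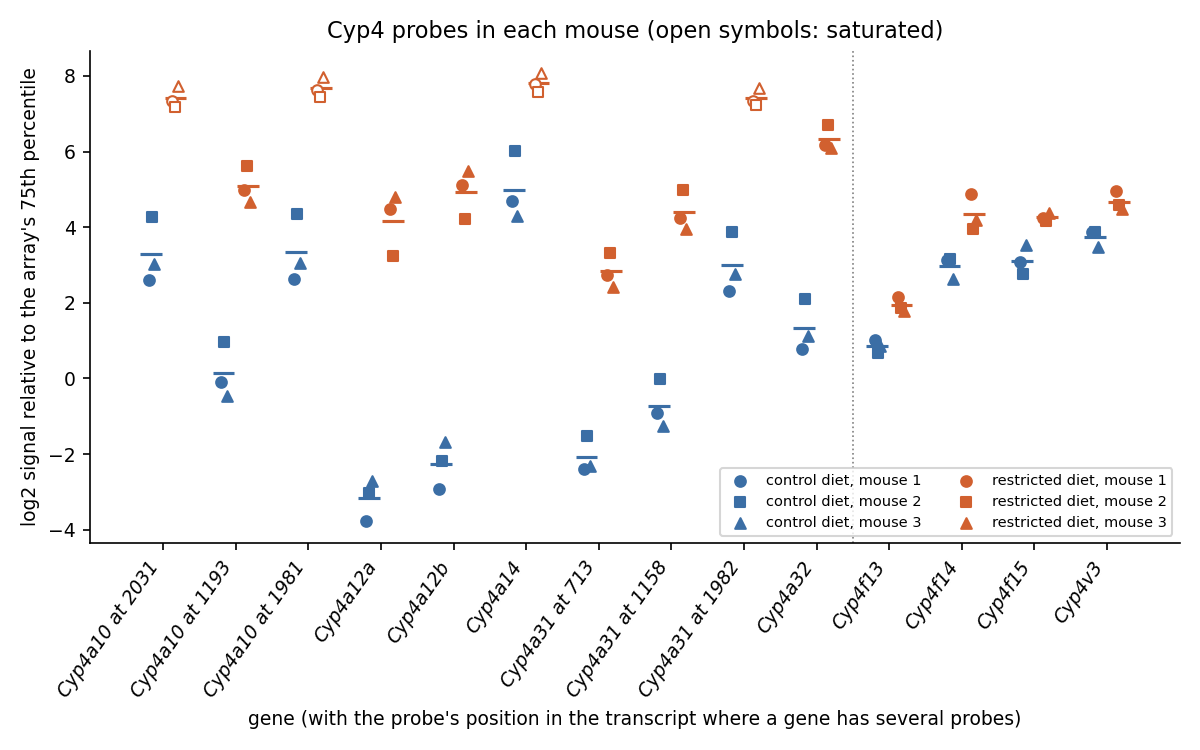
Log2 signal, with the 75th percentile of each array set to 0 (vertical axis), for each of the 14 probes of the 10 Cyp4 genes (horizontal axis), with 1 symbol per mouse, blue for the control diet and orange for the restricted diet; horizontal lines are means over 3 mice and the dotted line separates Cyp4a from Cyp4f and Cyp4v3. Restricted mice lie above control mice on every probe, by more on Cyp4a probes than on the others, and open symbols mark the 4 probes that were saturated in all restricted mice.

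Saturation sets how the Cyp4a values can be read. The scanner reads raw intensity up to 65287, and 4 of the 10 Cyp4a probes were at that limit in all 3 restricted mice and in no control mouse. These were the probes of Cyp4a10 at positions 1981 and 2031, that of Cyp4a31 at position 1982 and the single probe of Cyp4a14. Their processed signals in the restricted mice spanned only 1.31% to 7.65% from lowest to highest, whereas the 6 Cyp4a probes that were never saturated spanned 66.9% to 199%. For the saturated probes the difference is therefore a lower bound, and the order of the restricted mice on them carries no information. For scale, 8 of 12 hepatocyte markers, among them albumin (Alb), were saturated on all 6 arrays, and at the ceiling the array scaling alone gave differences of 0.34 to 0.39.

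Cyp4a12a and Cyp4a12b showed the largest measured differences, ranking 1 and 2 of 19616 features, where saturated features enter with lower bounds. The Cyp4a12a probe (NM_177406, mm9 chromosome 4, 115005258 to 115005317) measured -3.77, -3.04 and -2.72 in control mice 1, 2 and 3 and 4.49, 3.25 and 4.79 in restricted mice 1, 2 and 3. The means were -3.18 ± 0.54 and 4.17 ± 0.82 (SD, n = 3 each), a difference of 7.35 ± 0.45 (SE) or 163-fold. Under normexp background correction the difference was 6.16. The lowest restricted mouse was 5.97 above the highest control mouse. The Cyp4a12b probe (NM_172306, chromosome 4, 115111580 to 115111639) measured -2.92, -2.19 and -1.69 in the control mice and 5.12, 4.21 and 5.49 in the restricted mice, a difference of 7.21 ± 0.42 (6.49 under normexp). Neither probe was saturated. On both, restricted mouse 3 was highest and restricted mouse 2 lowest, and control mouse 3 was highest and control mouse 1 lowest, and given the shared annotation the probes are not independent readings.

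Cyp4a10, a PPAR-alpha target, had a probe that stayed within range in every mouse. At position 1193 (NM_010011, chromosome 4, 115198463 to 115198522) it measured -0.09, 0.95 and -0.46 in the control mice and 4.98, 5.61 and 4.68 in the restricted mice. The difference was 4.95 ± 0.41 (SE), or 31.0-fold. The saturated probes gave smaller values, 4.12 (at least 17.3-fold) at position 2031 and 4.33 (at least 20.1-fold) at position 1981. The probe at 1981 has the highest mean of the 3, by which rule it stands for Cyp4a10 wherever 1 probe per gene is used. In control mice, where no spot was saturated, that probe measured 2.62, 4.36 and 3.06, again with mouse 2 highest.

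Cyp4a31 and Cyp4a32, close relatives of Cyp4a10 next to it in the genome, gave differences of like size. The Cyp4a31 probe at position 1158 (NM_201640, chromosome 4, 115243923 to 115243982) measured -0.90, -0.00 and -1.26 in the control mice and 4.24, 4.98 and 3.96 in the restricted mice, a difference of 5.12 ± 0.39 or 34.7-fold. The probe at position 713, which lists Cyp4a10 too, gave 4.91 ± 0.32, and the saturated probe at 1982 gave 4.42, at least 21.5-fold. Cyp4a32 had 1 probe (NM_001100181, chromosome 4, 115294852 to 115294911), unsaturated, with 0.77, 2.11 and 1.13 in the control mice and 6.17, 6.69 and 6.10 in the restricted mice. Its difference was 4.98 ± 0.37, or 31.6-fold.

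Cyp4a14, the other classical PPAR-alpha target of the set, had a single probe and only a bound. The probe (NM_007822, chromosome 4, 115158914 to 115158973) measured 4.68, 6.00 and 4.30 in the control mice and 7.78, 7.58 and 8.07 in the restricted mice, all 3 saturated. The difference of 2.82 ± 0.43 corresponds to at least 7.05-fold. It is the smallest of the Cyp4a values, and with no unsaturated probe for this gene its place in the order of the members is unknown.

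**Figure D2:**
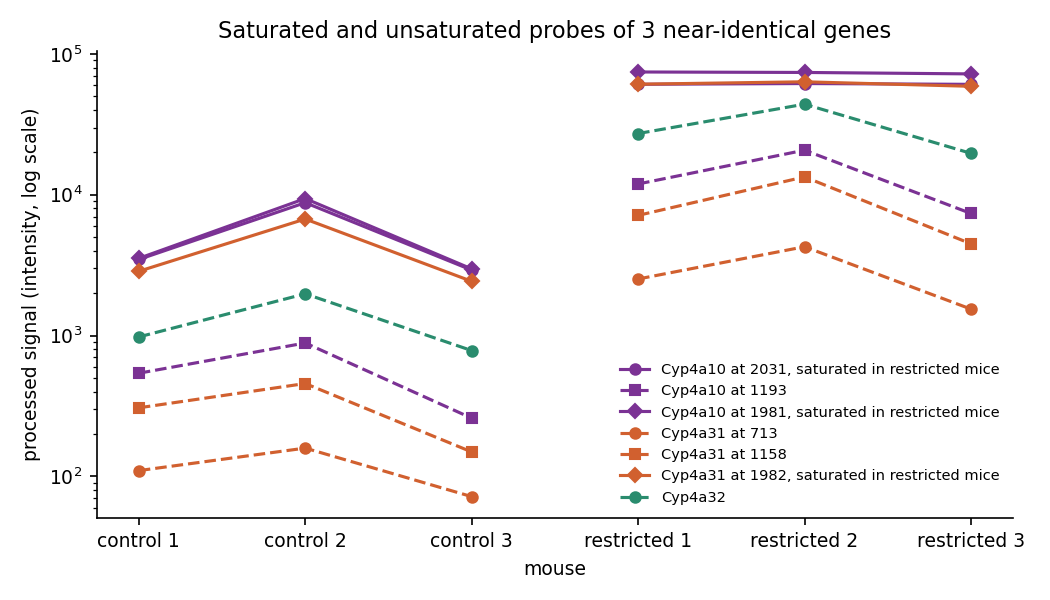
Processed signal on a log axis (intensity, vertical) in each of the 6 mice (horizontal) for the 7 probes of Cyp4a10, Cyp4a31 and Cyp4a32, 1 colour per gene, with solid lines for the 3 probes saturated in all restricted mice and dashed lines for the 4 that never were; lines join the mice of a diet only to show the probes' order. All 7 probes peak in control mouse 2, the 4 dashed probes also peak in restricted mouse 2, and the solid ones are flat across the restricted mice.

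On the probes of Cyp4a10, Cyp4a14, Cyp4a31 and Cyp4a32, control mouse 2 was highest on 8 of 8, while the lowest was control mouse 1 on 5 and control mouse 3 on 3. On the 4 that were never saturated, restricted mouse 2 was highest and restricted mouse 3 lowest on 4 of 4. The Cyp4a12a and Cyp4a12b probes ran otherwise, with restricted mouse 3 highest and restricted mouse 2 lowest on both. Averaged over Cyp4a10, Cyp4a31 and Cyp4a32 (1 unsaturated probe each), the restricted mice were 4.88, 5.51 and 4.66 above the control mean, against 7.53, 6.45 and 7.86 for the mean of Cyp4a12a and Cyp4a12b. The probes of each group can share signal and each array enters all of them, so these orders describe 3 mice per diet and were not tested.

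The Cyp4f genes and Cyp4v3 were higher in the restricted mice by 0.93 to 1.37. Cyp4f14, which is active on leukotrienes and vitamin E, measured 3.13, 3.15 and 2.63 in the control mice and 4.87, 3.96 and 4.18 in the restricted mice (NM_022434, chromosome 17, 33042214 to 33042273), a difference of 1.37 ± 0.28 (SE) or 2.58-fold. Restricted mouse 1 was the highest of the 6. The difference was 1.10 without it and 1.90 with the slide as a block. Cyp4f15 measured 3.08, 2.75 and 3.52 against 4.25, 4.17 and 4.37 (NM_134127, chromosome 17, 32840088 to 32840147), a difference of 1.15 ± 0.23. Its restricted mice lay within 0.20 of each other and its control mice within 0.76.

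Cyp4f13 measured 1.02, 0.67 and 0.85 in the control mice and 2.15, 1.85 and 1.79 in the restricted mice, a difference of 1.08 ± 0.19 or 2.12-fold. Its probe (NM_130882, chromosome 17) is annotated from 33062503 to 33062650, a span of 148 bases for a probe of 60, so its sequence is not contiguous in the genome. Cyp4v3, the counterpart of the human gene mutated in Bietti crystalline dystrophy, an eye disease of lipid deposits, measured 3.88, 3.87 and 3.48 against 4.96, 4.59 and 4.47 (NM_133969, chromosome 8, 46391395 to 46391454), a difference of 0.93 ± 0.21 or 1.91-fold. None of the 4 probes was saturated on any array. The gap between the lowest restricted and the highest control mouse was 0.60 for Cyp4v3, 0.65 for Cyp4f15, 0.77 for Cyp4f13 and 0.81 for Cyp4f14, beside SDs within a diet of 0.10 to 0.47.

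Side by side, the median difference was 4.70 over the 6 Cyp4a genes (range 2.82 to 7.35) and 1.11 over the 4 Cyp4f and Cyp4v genes (range 0.93 to 1.37), a gap of 3.59 in log2 units. The ranges did not overlap, and the median of all 19616 features was 0.12. With the 5 Cyp4a genes that have an unsaturated probe, each by that probe, the median was 5.12 (range 4.95 to 7.35). Among all features the Cyp4a differences ranked 1, 2, 14, 27, 33 and 121; those of the Cyp4f genes and Cyp4v3 ranked 826, 1292, 1529 and 2116. The last 3 Cyp4a ranks and the gap rest on lower bounds.

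The genes lie in clusters, and the probes give their order on mm9. From 114794372 to 115297465 on chromosome 4 the array has probes for 10 Cyp4 genes in the order Cyp4x1, Cyp4a29, Cyp4a12a, Cyp4a12b, Cyp4a30b, Cyp4a14, Cyp4a10, Cyp4a31, Cyp4a32 and Cyp4b1. On chromosome 17, from 32629616 to 33062650, the order of the genes with a Cyp4f name in the array's annotation is Cyp4f39, Cyp4f17, Cyp4f16, Cyp4f40, Cyp4f15, Cyp4f14 and Cyp4f13. The 3 Cyp4f members are thus the last of the row, and Cyp4v3 and Cyp4f18 lie apart on chromosome 8. Cyp4f37, found only through its RefSeq accession, is not placed here and was not kept for the test.

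The other genes of the family were tested, though which genes to list as members was decided with their values known too. Cyp4b1, next to Cyp4a32 and best known from lung, where it activates plant and fungal toxins, measured -3.09, -2.32 and -2.36 in the control mice and -0.99, 0.23 and -0.27 in the restricted mice. It rose by 2.25 ± 0.36 (SE, adjusted p = 0.00465, limma). Blocking on the slide gave 1.60 (adjusted p = 0.0444), and slide 1 alone did not pass (adjusted p = 0.0648). No mouse had Cyp4a29 or Cyp4x1 well above background. Cyp4a30b, between Cyp4a12b and Cyp4a14, was not well above background in the control mice and was in 2 of 3 restricted mice, at -4.09 and -3.48.

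On chromosome 17, Cyp4f16, whose function in liver is little described, fell by 1.70 ± 0.18 (adjusted p = 0.00106, limma), from -0.96, -1.28 and -1.16 to -2.96, -2.61 and -2.94. With normexp background correction the difference was -0.93 (adjusted p = 0.00287). Its neighbour Cyp4f17 rose by 0.91 ± 0.18 (adjusted p = 0.0121, or 0.0509 with the slide as a block). Cyp4f39 differed by 0.67 ± 0.25 and did not pass (adjusted p = 0.0915, or 0.0422 without control mouse 3), and Cyp4f40 was well above background in 1 restricted mouse only. Cyp4f18 on chromosome 8, the enzyme by which neutrophils inactivate leukotriene B4, measured 2.07, 1.94 and 2.16 in the control mice and -0.81, -0.75 and -0.58 in the restricted mice. It fell by 2.77 ± 0.16 (adjusted p = 0.000273), and a second probe one base away measured -2.32. Markers of neutrophils and macrophages were lower in the same mice, as given below, and in bulk tissue fewer cells of a type and less RNA per cell cannot be told apart; their part in the Cyp4f16 and Cyp4f18 values was not tested.

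**Figure D3:**
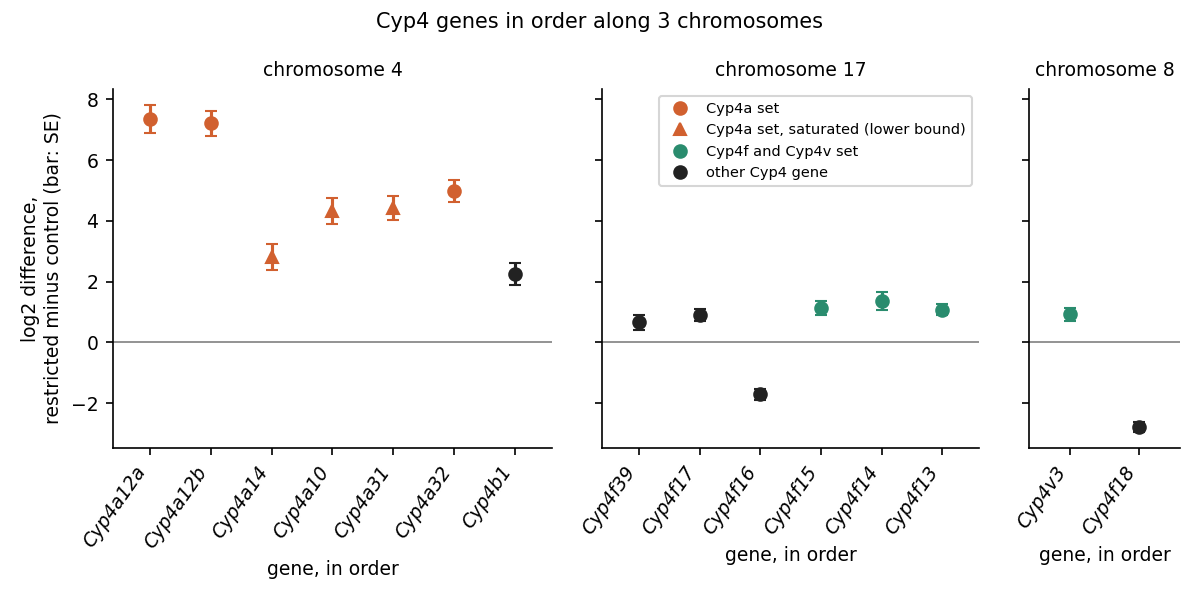
Log2 difference between the diets (restricted minus control, vertical axis, bars are SE from the fit, n = 3 mice per diet) for the Cyp4 genes tested, in order along chromosomes 4, 17 and 8 (horizontal axis, not to scale); triangles are saturated probes, whose values are lower bounds. The Cyp4a genes lie between 2.82 and 7.35, Cyp4f13, Cyp4f14, Cyp4f15 and Cyp4v3 between 0.93 and 1.37, and Cyp4f16 and Cyp4f18 lie below 0.

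The nearest tested genes outside the family were read as a check on position, by a rule added after the values had been seen: the 3 with an ordinary symbol on either side of each row and any inside it. Beside the chromosome 4 row, Stil, Tal1, Tex38 and Mob3c did not pass the test (differences of -0.60 to 0.55). Pdzk1ip1, 27904 bases before it, rose by 1.07 ± 0.29 (adjusted p = 0.0334, limma) and Efcab14, 141592 bases after it, by 0.57 ± 0.15 (adjusted p = 0.0307). Blocking on the slide ended both calls (adjusted p = 0.254 and 0.169). So did leaving out either of control mice 1 and 2 or of restricted mice 2 and 3 (adjusted p from 0.0786 to 0.0992), while that of Efcab14 ended without restricted mouse 1 too (0.0735). Around and inside the chromosome 17 row, Rasal3, a gene of blood cells, fell by 2.37 ± 0.36 (adjusted p = 0.00368), with a difference of -0.57 under normexp background correction (adjusted p = 0.0411). The other 7 there, 5 of them with a Zfp symbol, did not pass (differences of -0.76 to 1.15). Of these, Pglyrp2 passed without control mouse 1 or restricted mouse 3 (adjusted p = 0.0321 and 0.0421) and Zfp472 without control mouse 3 (0.0129). With mouse number as a block, Tex38, Mob3c, Pglyrp2 and Zfp472 passed (adjusted p = 0.0486, 0.0366, 0.00731 and 0.0440, limma). The labels do not say that the numbers pair the mice.

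Genes listed for the steps around a Cyp4 hydroxylase were mostly higher. Of 14 genes listed for electron supply or for the formation of a dicarboxylic acid, 8 rose and none fell (14.6% and 12.8% of all features), with a median difference of 0.83. Those shares of all features apply to every list and marker count below. Cyb5b rose by 1.41 ± 0.16 (SE). It is a cytochrome b5 of the outer mitochondrial membrane, not of the endoplasmic reticulum, where the Cyp4 enzymes sit. Cyb5r3, a cytochrome b5 reductase, rose by 1.71 ± 0.21 and Aldh1a1, an aldehyde dehydrogenase, by 2.34 ± 0.26. For Cyb5b, Cyb5r3 and Aldh1a1 limma's adjusted p was 0.00121 to 0.00166. Aldh3a2, the fatty aldehyde dehydrogenase, rose from -0.08, 0.66 and 0.40 to 1.84, 2.67 and 2.75. Por, the reductase that passes electrons to every microsomal P450, measured 6.37, 6.19 and 6.42 in the control mice and 6.99, 6.76 and 6.76 in the restricted mice; its difference of 0.51 ± 0.17 did not pass (adjusted p = 0.0635, or 0.0488 with median scaling). Blocking on the slide gave a count of 5 in place of 8, as did leaving out control mouse 1.

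Peroxisomal genes of the next step were higher as well. Of 24 genes of peroxisomal acyl-CoA import and breakdown 17 rose and none fell, with a median of 1.40. Acaa1b, a peroxisomal thiolase, rose by 4.16 ± 0.37 (SE) from 2.36, 3.64 and 2.60 to 6.58, 7.29 and 7.22, and Abcd3, a transporter of acyl-CoA into peroxisomes, rose by 2.41 ± 0.19. Nudt7, a coenzyme A diphosphatase, rose by 2.67 ± 0.26, and adjusted p for the 3 genes was 0.000399 to 0.000704 (limma). Ehhadh, the bifunctional enzyme of the pathway, rose by 4.43 and was saturated on 1 array. With the slide as a block 8 of the 24 rose.

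Of 31 other genes known as PPAR-alpha targets 20 rose and 2 fell, with a median of 1.08. Acot1, a cytosolic acyl-CoA thioesterase, rose by 4.73 ± 0.58 (SE) from -0.71, 1.23 and -0.59 to 4.12, 5.50 and 4.49. Mouse 2 was highest within each diet as on the unsaturated Cyp4a10, Cyp4a31 and Cyp4a32 probes, which was not the case for Ppara, given below. These orders were not tested. Me1, malic enzyme, rose by 2.65 ± 0.22 and Fads2, a fatty acid desaturase, by 2.37 ± 0.27 (adjusted p from 0.000459 to 0.00171, limma). The uncoupling proteins Ucp2 (-1.71) and Ucp3 (-1.63) fell. Pdk4 (-2.33) and Fgf21 (-0.93), which fasting induces through the same receptor, did not pass. With the slide as a block 12 rose and 1 fell.

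Ppara itself rose, and its partners mostly did not pass the test. Ppara measured 3.70, 3.50 and 4.49 in the control mice and 5.44, 5.53 and 5.68 in the restricted mice, and rose by 1.65 ± 0.28 (SE, adjusted p = 0.00558, limma), with its other 2 probes at 1.71 and 1.85. Blocking on the slide gave 1.54 and ended the call (adjusted p = 0.0554). Of 17 receptors and cofactors 4 rose and 1 fell (14.6% and 12.8% of all features), with a median of 0.55. Med1, a Mediator subunit that binds PPAR-alpha, rose by 3.12 ± 0.24 on the probe used (adjusted p = 0.000399) while its other 3 probes measured 0.27 to 0.61. Nr1h4, the bile acid receptor FXR, rose by 1.60 ± 0.41 (adjusted p = 0.0271, or 0.148 with the slide as a block, limma). That call also ended without control mouse 1 or 2 or without any 1 of the restricted mice (adjusted p from 0.0638 to 0.0899). The fourth that rose was Esrra (1.14), an orphan receptor, and the one that fell was Ppard (-0.65), the delta form. None fell under median scaling, with the slide as a block, or without control mouse 1 or 2 or any 1 restricted mouse. In place of 4, 1 rose when the slide was a block, and 2 rose without control mouse 1 or 2 or without restricted mouse 2 or 3.

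Genes of male-typical liver, the setting in which Cyp4a12a is known, were also mostly higher. Of 16 tested 12 rose and 1 fell, with a median of 1.73. Mup21, a major urinary protein, rose by 4.93 ± 0.50 (SE) from 0.73, 2.46 and 1.76 to 7.14, 5.85 and 6.75. Mouse 2 was lowest among the restricted mice as on the Cyp4a12a and Cyp4a12b probes. The rest of the order differed, since control mouse 2 was highest on Mup21 and control mouse 3 on those probes. These orders were not tested. Ugt2b1, a glucuronosyltransferase, rose by 3.29 ± 0.35 (adjusted p = 0.000995, limma), with restricted mouse 2 the lowest of its diet at 2.09. Nudt7, given above, is on this list too. The gene that fell was C9, a complement component, from 2.95, 3.29 and 3.17 to 2.31, 1.53 and 2.59. That call ended when the slide was a block and when any 1 mouse other than restricted mouse 3 was left out.

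Of 17 genes of female-typical liver 4 rose and 2 fell (14.6% and 12.8% of all features), with a median of 0.53. Cyp2b9 rose by 2.23 ± 0.41 (adjusted p = 0.00822) and Cyp3a16 by 1.41 ± 0.26 (adjusted p = 0.00776), and blocking on the slide ended both calls (adjusted p = 0.0717 and 0.0649). Cyp2a4, a steroid hydroxylase saturated in all restricted mice, was at least 9.19-fold higher (adjusted p = 0.00166). Cyp2b13 (2.77) also rose, and Cyp3a44 (-2.04) and Slc22a26 (-3.83), an organic anion carrier, fell. The counts were 6 and 1 without restricted mouse 1 and 4 and 6 without restricted mouse 2, and none fell without control mouse 1. Of 15 genes of growth hormone and androgen signalling, which set these patterns, 3 rose and 2 fell (14.6% and 12.8% of all features), with a median of 0.27. The growth hormone receptor gene Ghr rose by 0.81 ± 0.17 (adjusted p = 0.0148, or 0.0728 with the slide as a block, 0.0562 without control mouse 1 and 0.0506 without restricted mouse 3). The liver transcription factor genes Foxa1 (0.89) and Foxa2 (1.36) also rose. The kinase gene Jak2 fell by 1.15 ± 0.18 (adjusted p = 0.00428), and Socs2, a feedback inhibitor of the pathway, fell by 1.09 ± 0.20 (adjusted p = 0.00736, or 0.084 with the slide as a block). None of this list rose with the slide as a block or without restricted mouse 3, and 1 did without control mouse 1 or control mouse 2.

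Genes that make, bind or break down eicosanoids, substrates of several Cyp4 enzymes, moved both ways. Of 18 tested 6 rose and 8 fell, with a median of -0.32. Alox5ap, which helps to start leukotriene synthesis, fell by 3.79 ± 0.24 (SE), and Ltb4r1, a leukotriene B4 receptor, fell by 3.24 ± 0.20 (adjusted p of 0.000325 and 0.000303, limma). Ephx2, the soluble epoxide hydrolase of hepatocytes, rose by 1.99 ± 0.20 from 4.22, 4.78 and 4.40 to 6.39, 6.53 and 6.47 (adjusted p = 0.000771). The genes that rose also include the epoxygenases Cyp2j5, Cyp2j6 and Cyp2c29 (0.76 to 1.13), and those that fell include Ptgs1 (-2.08) and Cysltr1 (-2.29), which leukocytes also express. With the slide as a block 3 rose and 8 fell.

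**Figure D4:**
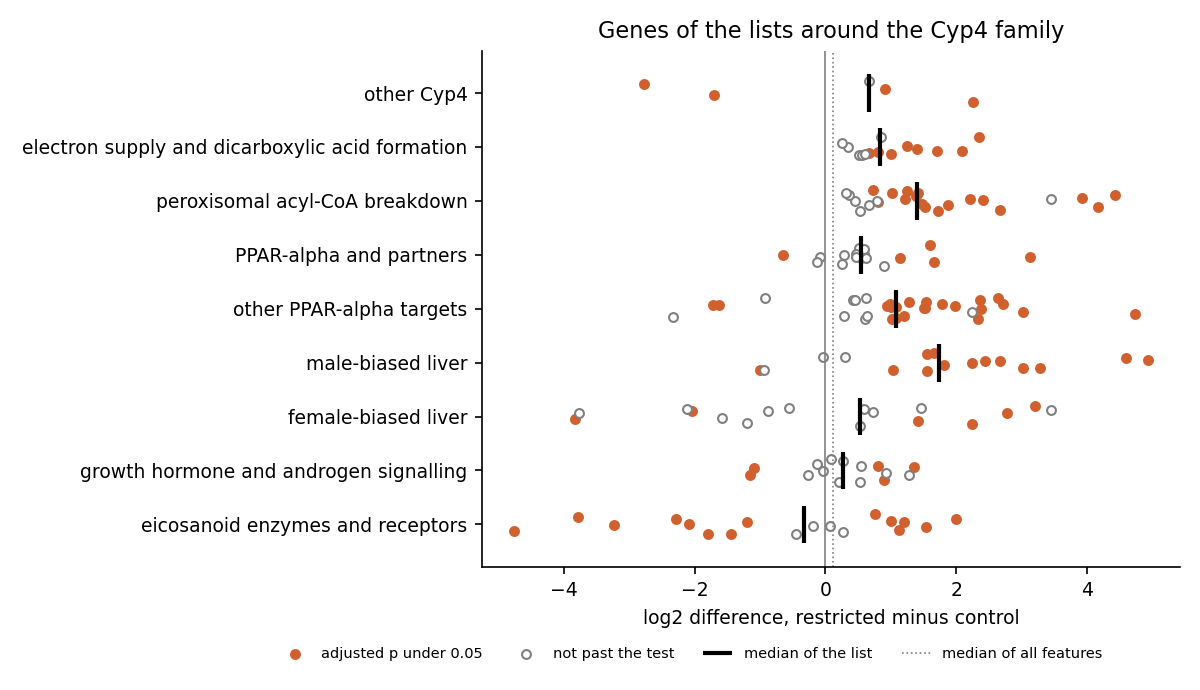
Log2 difference between the diets (restricted minus control, horizontal axis) of each tested gene (1 point per gene, n = 3 mice per diet) in the 9 lists around the Cyp4 family (vertical axis), filled where limma's adjusted p was under 0.05; black bars are list medians and the dotted line is the median of all features at 0.12. Peroxisomal, PPAR-alpha target and male-typical genes lie mostly to the right (medians 1.40, 1.08 and 1.73), and the eicosanoid list is split.

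By the correlation of log2 values over the 6 arrays, the genes most like the mean of the 6 Cyp4a members were Myct1 (Pearson r = 1.00), Sult2a8 (0.999), Arl6ip1 (0.999), Rxfp3 (0.998) and Gsta1 (0.998). Of these, Sult2a8, a sulfotransferase of liver, was 5.40 and Gsta1, a glutathione transferase, 4.42 higher in the restricted mice, and Arl6ip1 by 0.80. The genes most like the mean of the Cyp4f members and Cyp4v3 were Aspscr1 (0.998), Zkscan14 (0.998), Ces3b (0.997), Cul3 (0.996) and Mcoln3 (0.995), with differences of 0.65 to 2.14. The 6 points fall into the 2 diets, and 903 of 13901 features with an ordinary symbol exceeded 0.95 for the Cyp4a mean and 626 for the other, so the correlation mainly restates the difference between the diets and names no gene as linked to the family.

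Across the series, 5386 of 19616 features (27.5%) were called, 2868 higher and 2518 lower in the restricted mice. Control mice 1, 2 and 3 and restricted mouse 1 were on slide 1, and restricted mice 2 and 3 were alone on slide 2. With the slide as a block 3013 features were called, 37.2% of them higher, against 53.2% without it. Restricted mouse 1, on the same slide as the control mice, was 4.88 above the control mean for Cyp4a10, Cyp4a31 and Cyp4a32, 7.53 for Cyp4a12a and Cyp4a12b and 1.39 for the Cyp4f genes and Cyp4v3. The labelled tissue showed its markers: hepatocyte markers were bright on every array, 8 of 12 of them at the ceiling, where no difference between the diets could be read, and their mean level was 6.56 to 7.01 in the control mice and 6.92 to 7.20 in the restricted mice.

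Markers of other cells moved with the diet. All 12 macrophage and Kupffer cell markers fell (median -2.23; mean level 2.72 to 3.16 in the control mice and 0.34 to 0.92 in the restricted mice). Of 9 neutrophil markers 6 fell and 1 rose (median -3.88, or -1.31 with the slide as a block), and Ltf, not well above background in the restricted mice, was at least 26.4-fold lower by this scaling, with a difference of -2.44 under normexp. The neutrophil count that fell was 4 with the slide as a block or without control mouse 1 or 2 or restricted mouse 2 or 3. It was 8 without restricted mouse 1. Elane (0.67) was the one that rose, and none did when the slide was a block or without control mouse 1 or 2 or any 1 restricted mouse. Of 9 stellate cell and fibroblast markers 6 fell, but 2 without control mouse 2 and 3 without restricted mouse 2. Of 6 bile duct markers Spp1, Krt7 and Epcam fell (1 with normexp background correction), and of 7 lymphocyte markers Cd3d and Cd3g, a list with no call under normexp or without control mouse 2 or 3 or any 1 restricted mouse. Of 7 sinusoidal endothelial markers Lyve1, Clec4g and Oit3 rose, but the Lyve1 call ended without any 1 control mouse or restricted mouse 1 or 2 (adjusted p from 0.0641 to 0.0895, limma). Of 14 periportal hepatocyte markers Cyp2f2, Hal, Gls2, Asl and Etnppl rose and none fell. Without control mouse 1, control mouse 2 or restricted mouse 2 the count that rose was 3, and without control mouse 3 there was 1 that fell. Of 14 pericentral ones Cyp1a2, Oat and Rgn rose and Lect2 fell (14.6% and 12.8% of all features). Rgn did not pass when the slide was a block (adjusted p = 0.0538, limma). Kidney, where male mice also express Cyp4a12a, had 5 of 10 markers that could be tested, of which Aqp2 (1.84) and Slc22a6 (1.32) rose (1 of them with the slide as a block or without control mouse 1 or 2 or restricted mouse 2), at mean levels of -3.57 to -3.29 in the control mice and -2.81 to -2.50 in the restricted mice. None of 4 adipose markers passed. The part of these markers in the Cyp4 values was not tested.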

How the data were processed

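The authors' deposited scanner files give intensity per spot (gProcessedSignal), made by Agilent Feature Extraction 10.7.3.1 per the file headers and 9.3.2.1 per the submitters' processing notes. The deposited value table, also intensity on a linear scale (column medians 27.5 to 52.1), lay within 0.1% of these signals for 99.8% to 99.9% of probes and served as an alternative. Probe coordinates are mm9, per the files. Outlier spots (127 to 251 of 43020 per array) were left out, log2 was taken, spots of a probe were averaged and each array's 75th percentile was subtracted. A probe was kept (24234 of 39429) if every measured array of 1 diet or the other had it well above background, and the probe with the highest mean per gene name gave 19616 features. Names followed RefSeq accessions for 26055 probes. Diets were compared with limma 3.58.1 in R 4.3.3, two-sided, with Benjamini-Hochberg adjustment over all features and a threshold of 0.05.

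Where a group was saturated, or not well above background, on all its arrays, a bound is given: the brighter mean over the dimmer mean, with dim arrays raised to their lowest signal well above background. The code was tested on simulated data. Each array is a separate mouse, per the labels. The number of arrays limits the precision.

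The members, lists, tests and alternatives were chosen with earlier results of these data known. Genes named are all members, all other Cyp4 genes with a probe under that name in the array's annotation, Ppara and Por. To these come up to 3 called genes with the smallest p per list and the 5 features most like each subfamily mean. Of the cell marker lists, not all genes chosen by that rule are named. Cyp4f37, Aldh3a2, Ehhadh, Ucp2, Ucp3, Pdk4, Fgf21, Alb, Cyp2j5, Cyp2j6, Cyp2c29, Ptgs1, Cysltr1, Esrra, Ppard, C9, Cyp2b13, Cyp3a44, Slc22a26, Foxa1, Foxa2, the neighbours of the clusters and the cell markers beyond the first 3 per list were added after their values were seen. Same-numbered mice were not treated as pairs, since the labels do not say that the numbers pair them.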

Additional observations from a re-analysis of the deposited data

How the results depend on the processing

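Alternatives changed the design (slide or mouse number as a block, slide 1 alone, each mouse left out), the scaling (median, quantile), the background correction (normexp), the source (the deposited value table), the probe per gene (every probe kept) and the filter on dim probes (none, or detection on all 6 arrays). Over 16 alternatives for each of the 10 members, the difference stayed within the SD of the mice in 151 of 160 cases and moved further in 9 (Cyp4a12a and Cyp4a12b under normexp, Cyp4v3 under quantile normalization, Cyp4f13, Cyp4f14 and Cyp4v3 with the slide as a block and on slide 1 alone: 1.30, 1.90 and 1.22), with no reversal. Many of these cases could hardly move. Mouse number as a block and both filters left every member's difference unchanged, and keeping every probe changed only Cyp4a31. Median scaling shifted all members alike, the deposited values are nearly the same signals, and slide 1 alone repeated the slide-block differences. The count of 151 is therefore no measure of robustness. The Cyp4a median minus the Cyp4f and Cyp4v median ranged from 3.25 to 4.12 over the mice left out. The number of features called was 5386, against 3013 with the slide as a block, 2444 on slide 1 alone and 3357 (without control mouse 2) to 5889 over the mice left out, with 3430 without restricted mouse 2. Of the called features 53.2% were higher, against 37.2% with the slide as a block and 34.5% on slide 1 alone. Of 153 genes on the 9 lists 75 rose, 40 with the slide as a block, 34 on slide 1 alone and 58 to 73 over the mice left out, and 18 fell, 13 to 20 over the mice left out. Causes were not tested. Slide 1 alone has 1 restricted mouse, taken to vary like the control mice. With mouse number as a replicate block 6623 features were called. Deviations of same-numbered mice correlated at 0.38, -0.00 and 0.48, and those of the other pairs at -0.50 to 0.12. The labels do not say that the numbers pair the mice, and whether they do was not tested. Leaving out saturated spots gave no value for Cyp4a14, whose single probe was saturated in all restricted mice. Saturation limits what the brightest Cyp4a probes can show.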
